A study of Mus musculus with 14 samples.

Results

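The liver genes that export, take up and conjugate bile acids were measured in 14 C57BL/6 mice, 7 wild type and 7 mthr-/-, a genotype whose abbreviation the labels do not spell out. The set holds 8 of the 272 different genes on the arrays: the canalicular exporters Abcb11 and Abcc2, the basolateral exporters Abcc3, Abcc4, Abcc5 and Abcc6, the uptake transporter Slc10a1 and the conjugating enzyme Baat. They were chosen by name, older synonyms included, and each is represented by 1 oligonucleotide. The arrays pair these oligonucleotides with the records NM_021022 (Abcb11), NM_013806 (Abcc2), XM_358306 (Abcc3), XM_139262 (Abcc4), NM_013790 (Abcc5), NM_018795 (Abcc6), NM_011387 (Slc10a1) and NM_007519 (Baat). Abcc3 and Abcc4, which the arrays list under predicted records, were matched by their symbols and the other 6 by accession.

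The labels give liver as tissue and name the cells primary hepatocytes, from animals aged 15 to 20 weeks on standard chow. Drinking water of the homozygous animals held 2% (w/v) betaine, starting 5 weeks after weaning, and the effects of genotype and of betaine cannot be told apart in this design. The genotype labels were not checked against a targeted transcript here. The wild type group had 2 females and 5 males, and the mthr-/- group had 4 females and 3 males. Every animal had an array of its own, read in a single colour, and the arrays belong to 4 slide series, called A to D here, of which A (1 wild type, 4 mthr-/-) and B (4 wild type, 2 mthr-/-) hold both genotypes. Series C has 2 wild type arrays and D has 1 mthr-/- array, and neither adds to a genotype difference once slide series is a block.

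Bile acids circulate between liver and intestine. Hepatocytes take them up from portal blood through Slc10a1, the sodium-dependent transporter NTCP of the basolateral membrane, join newly made ones to taurine or glycine through Baat, and secrete them into the bile canaliculus through Abcb11, the bile salt export pump. Abcc2 exports glucuronide and other organic anion conjugates, bilirubin conjugates among them, across the same canalicular membrane. The other ABCC pumps here face the blood: Abcc3 and Abcc4 can export bile acid conjugates there and are known to rise in cholestasis, Abcc4 and Abcc5 carry cyclic nucleotides, and loss of Abcc6 causes ectopic calcification.

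The summed background-subtracted intensity of all mouse oligonucleotides ran from 14791 to 57034 on wild type and from 16913 to 87080 on mthr-/- arrays. A gene counted as above background where it exceeded the mean plus 2 SD of the plant control spots of its array, a limit whose lowest value was -0.207, on wild type 2, and whose highest was 9.81, on wild type 6. Wild type 6 had 70 oligonucleotides above its limit and the other arrays had 114 to 186. All 5 hepatocyte markers on the array passed the filter, with Alb (albumin) at a median of 5872. The cholangiocyte marker Krt19 had a median of 0.375 and exceeded the limit on 1 array, and no macrophage marker was on the array. The endothelial markers Pecam1 and Cdh5 had medians of 0.875 and -0.50, and of 3 muscle markers 2 passed, Mb and Slc25a4. For Mb, 1 oligonucleotide was above the limit on 13 arrays and another on 3, and Slc25a4 was above it on 7. Of 5 stellate and fibroblast markers on the array 3 passed, and the summed level of the 5 ran from 23.8 to 161 on wild type and from 30.8 to 539 on mthr-/- arrays. Fewer cells of a type and less RNA per cell cannot be told apart in such samples.

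Detection separated the 8 genes into 3 kinds. Slc10a1 and Baat were above background on all 14 arrays, as were 19.5% of the 272 genes. Abcb11, Abcc2, Abcc3 and Abcc6 were above it on 12 arrays each, 6 of each genotype. All 4 were below it on wild type 6. Abcb11, Abcc3 and Abcc6 were also below it on mthr-/- 1, and Abcc2 on mthr-/- 3. The low Abcc2 value came from 1 spot with a local background of 12675. The other spots of Abcc2 on that array, at 21, 31 and -7, averaged above the limit of 7.05. Without that 1 spot Abcc2 was above background on every mthr-/- array. Abcc4 exceeded the limit on 2 wild type and 5 mthr-/- arrays, and Abcc5 on 4 and 3. These last genes met the requirement of 7 of 14 arrays exactly. All 8 genes entered the tests, against 49.3% of the genes on the array. A limit from the median plus 3 median absolute deviations changed 1 of these counts, Abcc6 from 12 to 11 arrays. Oligonucleotides bind with unequal strength, so intensities of different genes are not ranked against each other here.

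**Figure D1:**
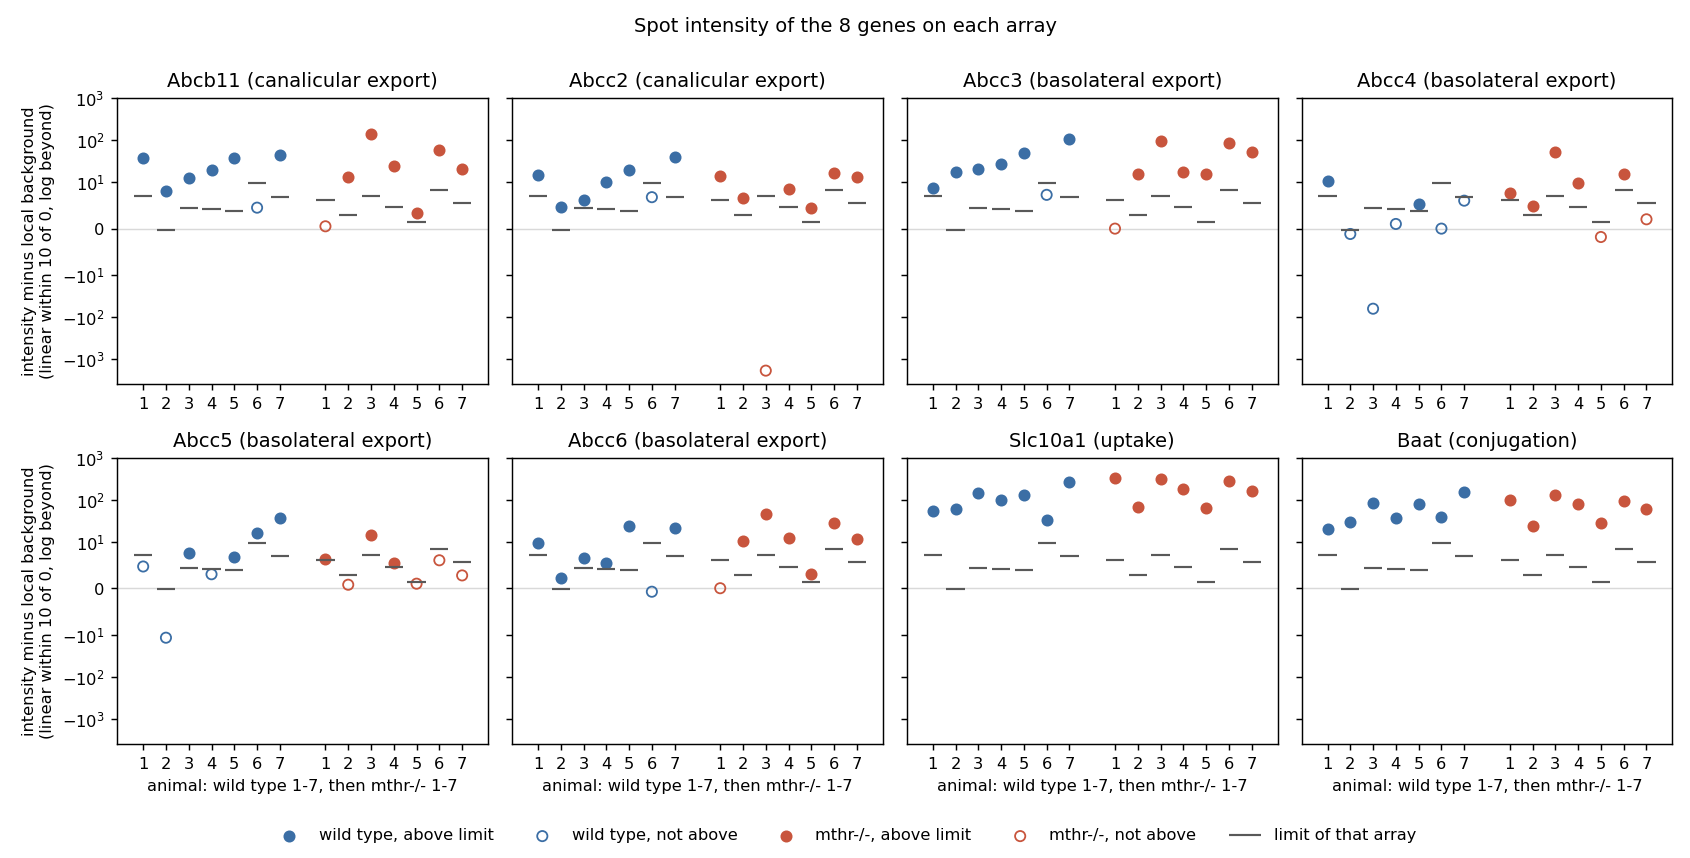
Background-subtracted intensity (y axis, linear within 10 of 0 and logarithmic beyond) of each gene on each of the 14 arrays (x axis, wild type then mthr-/-), with a bar for the limit of that array; filled points lie above the limit. Slc10a1 and Baat lie above it on 14 of 14 arrays, and the lowest points are Abcc2 on mthr-/- 3 at -1890 and Abcc4 on wild type 3 at -63.0.

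Neither canalicular pump passed the test between genotypes, and for each the genotype ranges overlapped. Abcb11 had a lowest, median and highest intensity of 4.50, 19.0 and 44.8 on wild type arrays and of 0.50, 20.0 and 143.5 on mthr-/- arrays. The highest value, on mthr-/- 3, and the lowest, on mthr-/- 1, came from the same genotype and span the whole wild type range. After normexp correction with an offset of 50, quantile normalization and averaging of spots, Abcb11 had a log2 level of 7.01 ± 0.11 in the wild type group and 6.92 ± 0.10 in mthr-/- (mean ± SD, 7 animals per genotype). The difference of -0.087 (SE 0.059) had a limma adjusted p of 0.581 over the 134 genes tested, and 1 of 7 mthr-/- arrays exceeded the wild type mean. Without wild type 1 it was -0.056, and with slide series as a block -0.16 (SE 0.076, unadjusted p = 0.056, limma adjusted p = 0.878). On series A the difference was -0.29, against wild type 1 alone, and on series B it was -0.088.

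Abcc2 had a lowest, median and highest intensity of 4.63, 10.2 and 40.5 on wild type arrays and of -1890, 8.50 and 16.2 on mthr-/- arrays. Its log2 level was 6.92 ± 0.055 in the wild type group and 6.82 ± 0.097 in mthr-/- (mean ± SD, 7 animals per genotype), and 0 of 7 mthr-/- arrays exceeded the wild type mean. The difference of -0.11 (SE 0.045) had the smallest unadjusted p of the 8 genes, 0.0326, and a limma adjusted p of 0.578, so it did not pass the test. Of all 134 genes 2.99% had an unadjusted p below 0.05 and were lower in mthr-/-. The value of -1890 came from 1 spot on mthr-/- 3, in block 4, with an intensity of 5071 over a local background of 12675. The other 3 spots of Abcc2 on that array read 21, 31 and -7 after subtraction. Without the spot in block 4 the difference was -0.083 (SE 0.032, unadjusted p = 0.0233, adjusted p = 0.580). When the slide series entered the model as blocks, and this spot was kept, Abcc2 differed by -0.086 (SE 0.058, limma unadjusted p = 0.172). On series A, which holds mthr-/- 3, the difference was -0.14, against wild type 1 alone, and on series B it was -0.051.

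Among the basolateral exporters no difference passed the test, and the genotype ranges of each gene overlapped. Abcc3 ran from 7.25 through a median of 20.8 to 106 on wild type arrays and from 0 through 17.2 to 97.2 on mthr-/- arrays. Its log2 difference was -0.10 (SE 0.087, adjusted p = 0.675), -0.054 without wild type 7 and -0.031 (SE 0.086) with slide series as a block. Of the 8 genes, Abcc3 had the largest estimated difference between the slide series that hold both genotypes: its log2 level was 6.89 on series A and 7.11 on series B. With genotype in the model this difference was 0.20 (SE 0.086, unadjusted p = 0.0391, adjusted p = 0.187), while 5.22% of the 134 genes passed the test between the series and 21.6% had an unadjusted p below 0.05, with 6.72% higher on series B.

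Abcc4 was dim, with a lowest, median and highest intensity of -63.0, 1.00 and 10.8 on wild type arrays and of -1.80, 7.67 and 51.8 on mthr-/- arrays. It was above background on 5 mthr-/- and 2 wild type arrays. On mthr-/- 1, 1 of these 5, the mean of 7.67 passed the limit of 6.08 through a block 1 spot of 22, and its other spots averaged 0.50. Without that spot Abcc4 was above background on 4 mthr-/- arrays and on 6 of the 14 arrays, under the 7 that the tests required. All 7 mthr-/- arrays exceeded the wild type mean of log2 6.75 ± 0.13. The difference of 0.059 (SE 0.052) had an adjusted p of 0.675, and it was 0.030 with slide series as a block. That mean contains wild type 3, where 1 spot in block 1 had an intensity of 223 over a local background of 459, and without wild type 3 the difference was 0.014.

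Abcc5 ranged from -11.7 to 35.8 on wild type arrays, with a median of 6.67, and from 0.75 to 14.2 on mthr-/- arrays, with a median of 5.50. Its log2 level spread more in wild type, at 6.88 ± 0.20, than in mthr-/-, at 6.79 ± 0.017 (mean ± SD, 7 animals per genotype), and the 2 highest wild type arrays were 6 and 7, the whole of slide series C. The lowest was wild type 2 at 6.63, where 1 spot in block 2 had an intensity of 145 over a local background of 202. The part of this spot in the spread was not tested. The difference was -0.093 (SE 0.075, adjusted p = 0.660), it was -0.030 without wild type 6, and with slide series as a block it was 0.0011. Abcc6 had a median of 6.50 on wild type and 11.5 on mthr-/- arrays, with ranges of -0.75 to 23.2 and 0 to 46.8. Its log2 levels of 6.85 ± 0.054 and 6.85 ± 0.050 (mean ± SD, 7 animals per genotype) differed by -0.0058 (SE 0.034, adjusted p = 0.920), and by -0.020 with slide series as a block. The 95% interval of that difference ran from -0.078 to 0.067, the narrowest of the 8 genes, on a scale that the offset of 50 compresses for dim genes.

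Slc10a1, the uptake transporter, had a lowest, median and highest intensity of 33.2, 99.0 and 262.5 on wild type arrays and of 65.2, 177 and 324 on mthr-/- arrays. The log2 levels after normalization were 7.71 ± 0.23 and 7.78 ± 0.30 (mean ± SD, 7 animals per genotype), a difference of 0.068 (SE 0.14, adjusted p = 0.890) with a 95% interval from -0.23 to 0.36. Of the 7 mthr-/- arrays 4 exceeded the wild type mean. The highest was mthr-/- 1 at 8.38, and without it the difference was -0.033. The sign also turned with the scaling, to -0.21 under median centring and -0.059 under cyclic loess. On series A the difference was 0.36, against 1 wild type array, on series B it was -0.025, and with slide series as a block it was 0.12 (SE 0.19).

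Baat, which conjugates bile acids, ran from 20.0 through 39.5 to 156 on wild type arrays and from 24.2 through 80.8 to 131 on mthr-/- arrays. Its normalized log2 level was 7.37 ± 0.21 in the wild type group and 7.21 ± 0.14 in mthr-/- (mean ± SD, 7 animals per genotype), although the unscaled median was higher in mthr-/-. The difference was -0.16 (SE 0.092, unadjusted p = 0.0957, adjusted p = 0.578), and 1 of 7 mthr-/- arrays exceeded the wild type mean. The difference was 0.17 on series A, against wild type 1 alone, whose level of 7.01 was the lowest of the wild type group. It was -0.17 on series B and -0.042 with slide series as a block.

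Over all 134 genes limma called 0% for genotype. At an unadjusted p below 0.05 there were 10 genes, or 7.46%, with 2.99% lower and 4.48% higher in mthr-/-. Of the 8 bile acid genes 0 were called, 6 were lower and 2 higher in mthr-/-, and their median difference was -0.090 against -0.0043 over all genes tested. Estimates below 0 made up 50.7% of the 134 genes. With slide series as a block 5 of the 8 genes were lower and 3 higher, with a median of -0.026 against -0.0096 over all genes tested. The intervals still allow changes of some size: the widest on the scale with the offset, for Slc10a1, ran from 0.855-fold to 1.28-fold. The offset compresses differences of dim genes, so this interval sets no bound for the pumps. With an offset of 0 the largest SE of the 8 genes was that of Abcc5, at 0.197, with Slc10a1 at 0.187. In the authors' value table the SE was 0.64 for Abcb11 and 0.66 for Abcc3, against 0.26 for Slc10a1 and 0.28 for Baat. The direction also depends on how arrays are scaled. Centring on common reference genes moved the median of all genes to 0.46 and no normalization moved it to 0.81, and all 8 genes were then higher in mthr-/-, with 6 of the 8 still below the median of all genes.

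**Figure D2:**
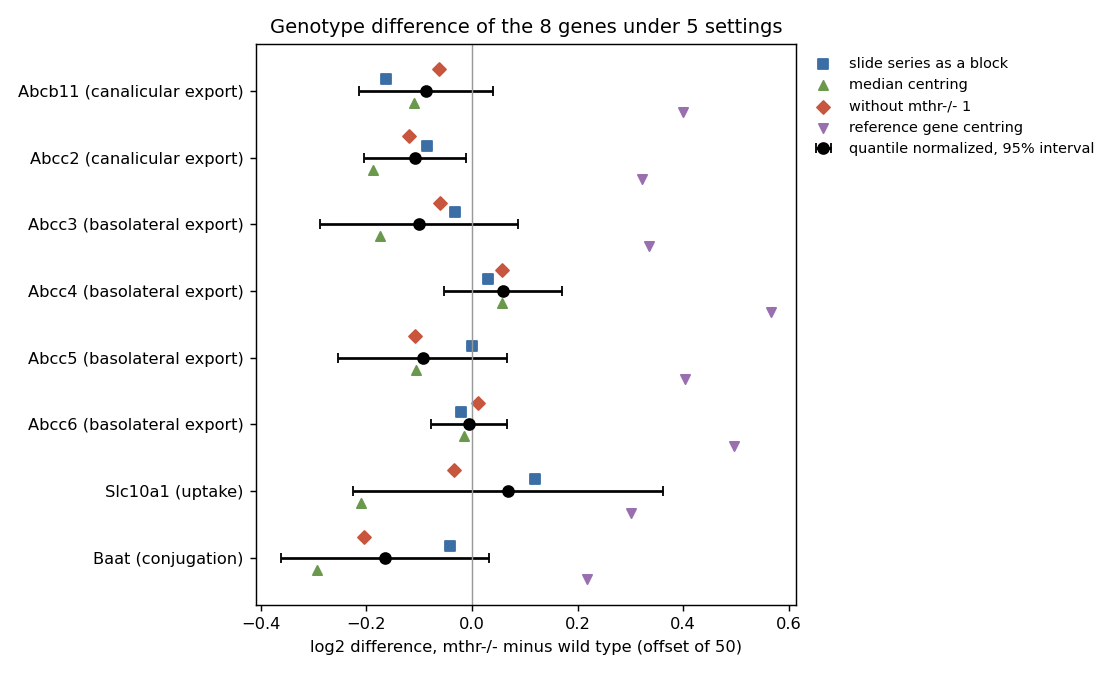
Log2 difference between mthr-/- and wild type (x axis) of the 8 genes (y axis) with its 95% interval from limma, beside the estimate under 4 other settings. The intervals of 7 genes include 0 and that of Abcc2, from -0.20 to -0.010, does not, while reference gene centring places all 8 genes above 0.

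On mthr-/- 1 the spots of several pumps disagreed with one another. Block 3 of this array repeats block 2 and was counted once. The spots that remain for Abcb11, Abcc3 and Abcc6 averaged 0.50, 0 and 0, below the limit of 6.08. The block 1 spots of the same genes, which the authors left blank in their scaled values, read 60, 77 and 57. On this array 22 spots of block 1 were blank, and 17 of them lay between positions 6 and 82, the stretch that holds all 6 pumps. The ends of this stretch were set by the pumps themselves. The share of all block 1 spots that it holds was not computed. Abcc4, also in this stretch, kept its block 1 spot, which read 22, while its spots in blocks 2 and 4 read 2 and -1. Abcc2 and Abcc5, in this stretch too, also kept their block 1 spots. Blocks 1, 2 and 4 read 21, 19 and 2 for Abcc2, and 3, 4 and 12 for Abcc5. Slc10a1 and Baat lie outside this stretch and read 324 and 99.3 on this array, with all spots above the limit. Their block 1 spots were also the brightest, at 437 against 274 and 260 for Slc10a1 and 157 against 75 and 66 for Baat. With blanked spots kept, Abcc6 differed by 0.011 between genotypes in place of -0.0058, and 0 genes were called.

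**Figure D3:**
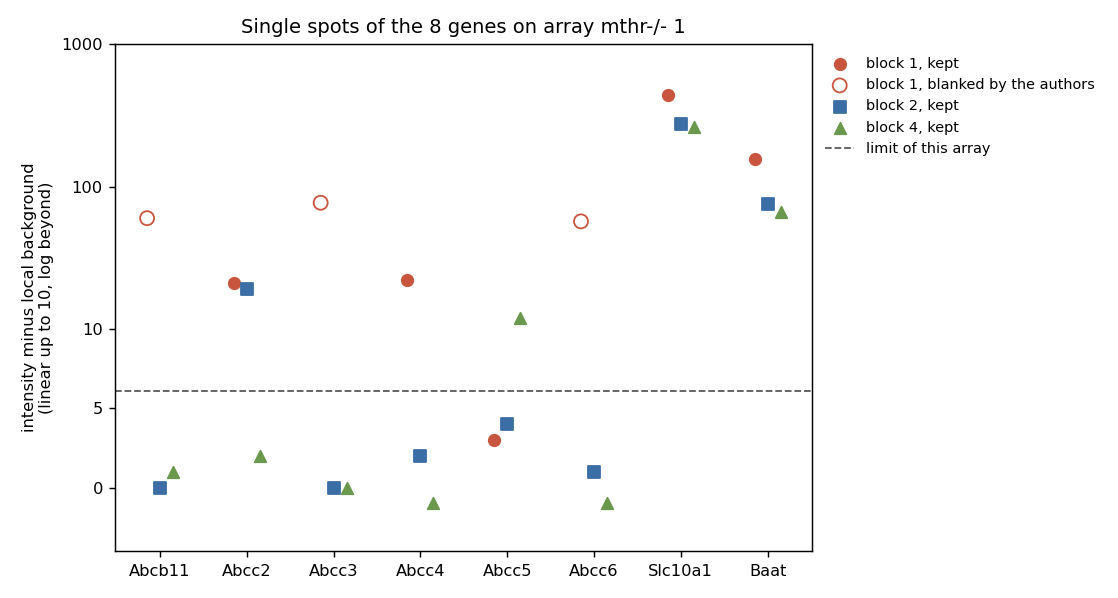
Background-subtracted intensity (y axis, linear up to 10 and logarithmic beyond) of each spot of the 8 genes (x axis) on array mthr-/- 1, by block, with the limit of 6.08 as a dashed line; open points were blanked by the authors. The open points of Abcb11, Abcc3 and Abcc6 lie at 60, 77 and 57, and the kept spots of these genes lie between -1.0 and 1.0.

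Sex was tested with genotype in the model, and limma called 0% of 134 genes, with 3 genes, 2.24%, at an unadjusted p below 0.05. Slc10a1 was one of these 3. Its log2 level ran from 7.62 to 8.38 in the 6 females, with a mean of 7.91, and from 7.40 to 7.98 in the 8 males, with a mean of 7.62, so the sexes overlapped. The difference of 0.29 (SE 0.13, unadjusted p = 0.0405) had an adjusted p of 1.00 and did not pass the test. Leaving out single arrays kept the difference between 0.22 and 0.33, with limma unadjusted p-values from 0.0163 to 0.0883. With slide series as a block it was 0.31 (SE 0.15, limma unadjusted p = 0.0722). No genotype by sex term passed either, with 0% called and 1.49% at an unadjusted p below 0.05, none of them among the 8 genes.

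A ratio of genes on the same array does not change when an array's intensities are all multiplied by 1 factor. The 6 ratios among Slc10a1, Baat, Abcb11 and Abcc3 were compared between genotypes, a choice made after the values had been seen. The size of a ratio depends on the oligonucleotides and carries no meaning here, so the comparison is between arrays. Slc10a1 over Baat had a log2 value of 0.85 ± 0.58 in the wild type group and 1.40 ± 0.20 in mthr-/- (mean ± SD, 7 animals per genotype), and all 7 mthr-/- arrays exceeded the wild type mean. The difference of 0.55 had an exact two-sided permutation p of 0.0210, and 0.126 after Benjamini-Hochberg adjustment over the 6 ratios, so it did not pass. Wild type 6 had the lowest ratio, 0.842, and without it the difference was 0.37 (adjusted exact p = 0.252). Without wild type 1 or without wild type 4 it was 0.65 (adjusted exact p = 0.0490 in both cases). It was -0.061 on series A, against 1 wild type array, and 0.42 on series B. The other 5 ratios, taken without wild type 6 and mthr-/- 1, where a pump was below the limit, had adjusted exact p-values from 0.901 to 0.942.

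**Figure D4:**
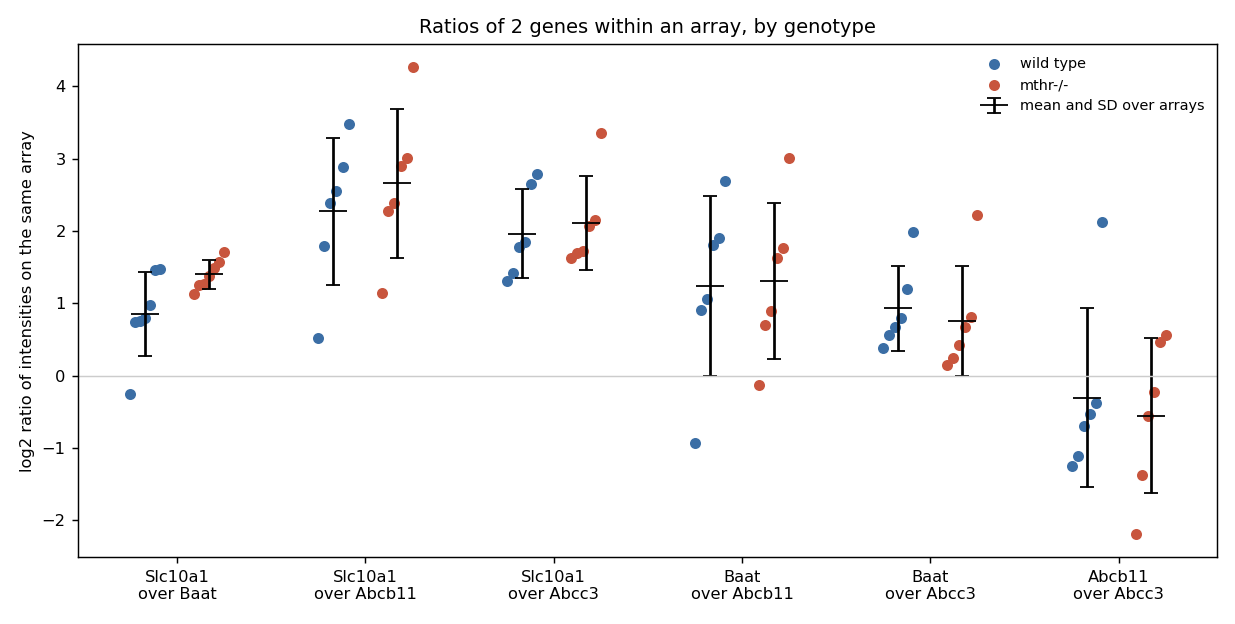
Log2 ratio of the intensities of 2 genes on the same array (y axis) for 6 pairs of genes (x axis), with the arrays as points and the mean and SD of each genotype in black. For Slc10a1 over Baat the means are 0.85 in the wild type group and 1.40 in mthr-/-, and the ranges of the genotypes overlap.

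Across the 14 arrays the normalized levels of the 8 genes were related to one another to very unequal degrees, while the median Pearson r over all pairs of tested genes was -0.0098. The values below share the arrays and their scaling and are descriptions. Abcb11 and Abcc6 had an r of 0.70 and a Spearman rho of 0.72. Without mthr-/- 1, where their kept spots averaged 0.50 and 0, the r of this pair was 0.56. Both genes were also below the limit of 9.81 on wild type 6, at 4.50 and -0.75, their lowest wild type values. The r without both arrays was not computed, so how far it rests on arrays without detected signal is not known. Abcc4 and Baat had an r of -0.60 and a rho of -0.72, and an r of -0.62 without mthr-/- 1. Abcc3 and Slc10a1 had an r of 0.12, and of 0.82 without mthr-/- 1, the array on which the kept spots of Abcc3 averaged 0. The tested genes most like each of the 8 were named by their Pearson r, which ranks did not always match: rho was 0.38 and 0.15 for the pair named for Abcc5 and 0.33 for Ambp with Abcc2, and 0.51 to 0.95 for the other genes named. For Abcb11 these were Gjb2 (0.87) and Ivd (0.79), and for Abcc2 they were Ctsl (0.74) and Ambp (0.69). Abcc3 was most like Apoc4 (0.79) and Aqp8 (0.72), Abcc4 most like Slc38a4 (0.67) and Apoa1 (0.62), and Abcc5 most like Atp1b1 (0.79) and Slc25a4 (0.78). Abcc6 had Arg1 (0.80) and Apoa5 (0.78), Slc10a1 had Gfer (0.77) and Echs1 (0.72), and Baat had Csad (0.86) and Shmt1 (0.82).

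Among further genes of bile acid synthesis, transport and control, Aqp8, a water channel of the hepatocyte, had a log2 level of 7.03 ± 0.22 in the wild type group and 6.89 ± 0.080 in mthr-/- (mean ± SD, 7 animals per genotype). The difference of -0.14 (SE 0.085) had a limma adjusted p of 0.578 and did not pass the test. Abcc1 and Aqp9 were above background on 1 and 3 arrays and were not tested.

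The authors' deposited table gives a genotype ratio for 4 of the 8 genes. In the authors' deposited table mthr-/- over wild type was 0.730 for Abcb11, 0.677 for Abcc3, 0.975 for Slc10a1 and 0.739 for Baat. Among the 103 ratios of the authors' deposited table, a share of 37.9% lay below 1, and their median was 1.15. For these 4 genes the authors' deposited mthr-/- median equals the median of 6 arrays, without mthr-/- 7. Over all 7 arrays of the authors' deposited value table the mthr-/- median of Slc10a1 is 86.95 in place of 84.6, beside a wild type median of 86.75, so its ratio lies below 1 without mthr-/- 7 and above 1 with it. For Baat the mthr-/- median in the authors' deposited tables is 33.9 without mthr-/- 7 and 31.5 with it.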

How the data were processed

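Oligo-dT primed cDNA of total RNA carried a single fluorescent dye, per the labels' protocols. For 4 spots per oligonucleotide the deposited files give, per the file headers, the spot intensity and the local background, with columns that the authors scaled by a method not given in the sources used here. Blank cells in those columns were taken as spots left out by the authors. The authors' deposited comparison gives medians and, per the file headers, the log10 of their ratio. Neither scanner nor software is stated there.

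Spots were corrected per array with normexp (offset 50, limma 3.58.1, R 4.3.3) and quantile normalized, without blanked spots, and averaged as log2 values. Of 284 mouse oligonucleotides 139 were above background on at least 7 of 14 arrays. A gene was represented by its brightest one, which left 134 genes. The limit came from 16 spots of 4 plant controls (12 on mthr-/- 1). Names came from a RefSeq table by accession for 191 oligonucleotides, by symbol for 52 and by synonym for 17, and 24 kept the file's name. Genotype was tested with limma on all 14 arrays without covariates (Benjamini-Hochberg, threshold 0.05), sex and slide series with genotype in the model, and ratios by exact permutation in scipy 1.17.1. The authors' value table, floored at 1, served as an alternative. Named were the 8 genes, the tested genes of the other bile pathway list, and for each of the 8 the 2 most correlated genes. A result that this rule names is not reported here. Members and lists were chosen with earlier results of these data known. Nothing beyond the animal numbers says how the samples were collected, and the number of arrays limits the precision. The procedure was tested on simulated data, in a simulation that was revised several times. It made no call when nothing was changed and recovered most changed genes, but with changed genes in the data its share of false calls exceeded the nominal rate. The changes put in were large and were placed only in genes above a set brightness. The simulation therefore does not show how often small changes, or changes in dim genes, would be found. 0 per-sample columns were unmapped.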

Additional observations from a re-analysis of the deposited data

Results flagged for a closer look

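Dixon's critical value for the gap as a share of the range is passed by chance in about 1 of 20 groups of normal values. In 3 of the 16 groups of 7 arrays (8 genes in each genotype), the lowest array lay apart from the rest by more than this value. These were Abcc2 on mthr-/- 3, at a log2 level of 6.61 with the next array at 6.81, Abcc4 on wild type 3, at 6.48 with the next at 6.76, and Abcc6 on mthr-/- 1, at 6.74 with the next at 6.84. On the first array 1 of the 4 spots of Abcc2 had a local background of 12675, on the second 1 spot of Abcc4 had a local background of 459, and on the third the kept spots of Abcc6 averaged 0 and its blanked spot read 57. The part of these spots in the levels was measured for Abcc2, whose genotype difference went from -0.11 to -0.083 without the spot, and was not tested for Abcc4 and Abcc6 alone. The share of such groups among the other tested genes was not computed, so 3 of 16 cannot be read as particular to these genes.

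The authors left 8 of the 440 spots of these genes blank, and each of the 8 read above the limit of its array. On mthr-/- 1 they were Abcb11 at 60, Abcc3 at 77 and Abcc6 at 57, where the kept spots averaged 0.50, 0 and 0. The others were Abcc2 on wild type 2 at 22 (kept spots 4.63), Abcc4 on wild type 7 at 16 (kept 6.00), Abcc5 on wild type 1 at 31 (kept 4.67) and on wild type 5 at 30 (kept 6.67), and Baat on mthr-/- 7 at 109 (kept 61.7). Each blanked spot was brighter than the kept spots of its gene on that array. Of the 432 kept spots 29 lay below their local background, 14 of them of Abcc4.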

How the results depend on the processing

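Of 228 genotype differences of the 8 genes under 29 alternative settings, 0 passed the test, and 24 changed sign. Reference gene centring gave 0.40 for Abcb11, 0.32 for Abcc2, 0.34 for Abcc3, 0.40 for Abcc5, 0.50 for Abcc6 and 0.22 for Baat. No normalization gave 0.75, 0.67, 0.68, 0.75, 0.84 and 0.56 for the same genes, and called 1 gene of 134, none of the 8, with 62 at an unadjusted p below 0.05. Under these settings the median of all genes was 0.46 and 0.81, and why it moved was not tested. Slc10a1 turned to -0.21 under median centring, -0.059 under cyclic loess, -0.014 with sex as a covariate and -0.072 without wild type 6 and mthr-/- 1. Abcc5 turned to 0.0011 with slide series as a block. Abcc6 turned to 0.011 with blanked spots kept, 0.0034 with sex as a covariate and 0.00066 with the median of the spots, and the cause was not tested. Leaving out 1 array at a time gave 0 called genes throughout, with 4 to 24 at an unadjusted p below 0.05, and ran from -0.12 to -0.056 for Abcb11, -0.13 to -0.076 for Abcc2, -0.14 to -0.054 for Abcc3, 0.014 to 0.081 for Abcc4, -0.14 to -0.030 for Abcc5, -0.024 to 0.012 for Abcc6, -0.033 to 0.12 for Slc10a1 and -0.23 to -0.12 for Baat. With an offset of 0 the differences were larger, as for Abcc2 at -0.29 and Abcc4 at 0.21, and 0 genes were called. Animal numbers are shared by the genotypes, and whether they pair the animals is not known. Correlations of same-numbered arrays ran from -0.23 to 0.35, which cannot decide this, since differently numbered arrays were not compared. A fit with the animal number as a replicate block called 0 genes, with 9 at an unadjusted p below 0.05. In the ratios, Baat over Abcc3 turned to 0.031 with blanked spots kept. On all arrays with both genes above 0, in place of above the limit, Slc10a1 over Abcb11 was 1.26 (0.39 as reported), Baat over Abcb11 0.70 (0.072) and Baat over Abcc3 -0.39 (-0.18), with adjusted exact p-values from 0.697 to 0.798. Leaving out single arrays, Slc10a1 over Baat ran from 0.37 to 0.65, Slc10a1 over Abcb11 from 0.041 to 0.69, Slc10a1 over Abcc3 from -0.11 to 0.31, Baat over Abcb11 from -0.36 to 0.36, Baat over Abcc3 from -0.47 to 0.035 and Abcb11 over Abcc3 from -0.47 to 0.24. Settings other than those listed before the array files were read (median of spots, single spots or 2 arrays left out, and all of the ratios) were chosen after seeing the data. Dim signal limits Abcc4 and Abcc5 most, above background on 7 arrays each.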
